A study of Mus musculus with 6 samples.

Results

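The 9 genes described here encode the enzymes at the centre of PI3K/AKT signalling. They are the catalytic subunits Pik3ca, Pik3cb and Pik3cd, the regulatory subunits Pik3r1, Pik3r2 and Pik3r3, the kinase Pdpk1, and the kinases Akt1 and Akt2. They were chosen by name, as the rows of the deposited table with these symbols, and all 9 were found among 18152 genes. RNA came from the inner enamel epithelium (IEE) of the mandibular first molar at E18.5, shortly before birth. The control group had 3 libraries of Kdf1 fl/fl mice, which carry floxed Kdf1 alleles without Cre. The mutant group had 3 libraries of K14-Cre;Kdf1 fl/fl mice, where the keratin 14 promoter drives Cre so that Kdf1 is deleted from epithelial cells. Both lines had a C57BL/6J background, and GEO labels the control libraries as WT. The IEE was cut from sections with a laser, and how many embryos went into a library is not stated.

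Class IA PI3K is a pair of a catalytic subunit, which phosphorylates the membrane lipid PIP2 to PIP3, and a regulatory subunit, which holds the enzyme inactive and brings it to phosphorylated receptors and adaptors. PIP3 recruits PDPK1 and AKT to the membrane, where PDPK1 phosphorylates AKT. AKT in turn acts on growth, survival and proliferation. The enzymes are switched by phosphorylation and recruitment, which RNA levels do not measure. The study asked whether the pathway is altered when epithelial Kdf1 is lost, and these libraries show whether the transcripts of its core enzymes differ.

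Library totals ranged from 14713939 to 16675154 counts. Kdf1 itself had 731 to 836 counts per control library against 1 count in the 3 mutant libraries together, so it was at least 259-fold lower, taking 3 counts per library as the limit that a count of 0 allows. This limit covers counting error only. Of 14131 genes tested, 77 (0.545%) had an adjusted p of at most 0.05 by the quasi-likelihood test of edgeR, 25 being higher and 52 lower in the mutants. Adjusted p values follow Benjamini and Hochberg throughout. Blocking on the replicate number in that test raised the count to 1395 (9.87%; 768 higher, 627 lower), and DESeq2 called 1785 (1043 higher, 742 lower) of the 14127 genes to which it gave an adjusted p (12.6%). None of 10 dental epithelium markers was at 0 throughout the controls. Their summed level was 13328 to 44593 TPM in the controls and 4856 to 8534 TPM in the mutants.

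Of the 9 genes, 0 passed an adjusted p of 0.05 in edgeR, 0 with the block and 1, Pik3ca, in DESeq2. An unadjusted p of at most 0.05 in edgeR was reached by 3 of the 9, against 24.5% of all genes tested. The groups did not overlap in CPM, counts scaled to the size of the library, for these same 3 genes, against 30.7% of all genes. Pik3ca was higher in every mutant library, as were 14.5% of all genes, and Pik3cb and Pik3r3 were lower in every one, as were 16.2%. As shares of 9, these counts lie close to the background of the whole table.

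Levels of different genes are compared here in TPM, the deposited measure that is scaled by both transcript length and library size. In the controls, Akt1 was the most abundant of the 9 with 240 ± 17.2 TPM (SD, n = 3), above 96.1% of the genes tested. It was followed by Pik3r2, Akt2 and Pik3r1, with mean levels of 80.4, 74.8 and 62.2 TPM. The ranges of Pik3r2 and Akt2 overlapped, as did those of Akt2 and Pik3r1. Pik3r3 stood apart below these at 20.4 TPM. Pdpk1 at 13.1 TPM and Pik3ca at 12.7 TPM overlapped each other, and Pik3cb at 6.48 TPM and Pik3cd at 5.34 TPM overlapped each other at the bottom of the order. Each catalytic subunit was therefore expressed at a lower level than each regulatory subunit. In the mutants the order of the 4 highest genes was the same by mean. Pik3ca, at 17.5 TPM, now had a higher mean than Pik3r3, at 15.0 TPM, but their ranges overlapped. Pik3cd at 5.63 TPM and Pik3cb at 5.01 TPM had changed places, again with overlapping ranges.

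**Figure D1:**
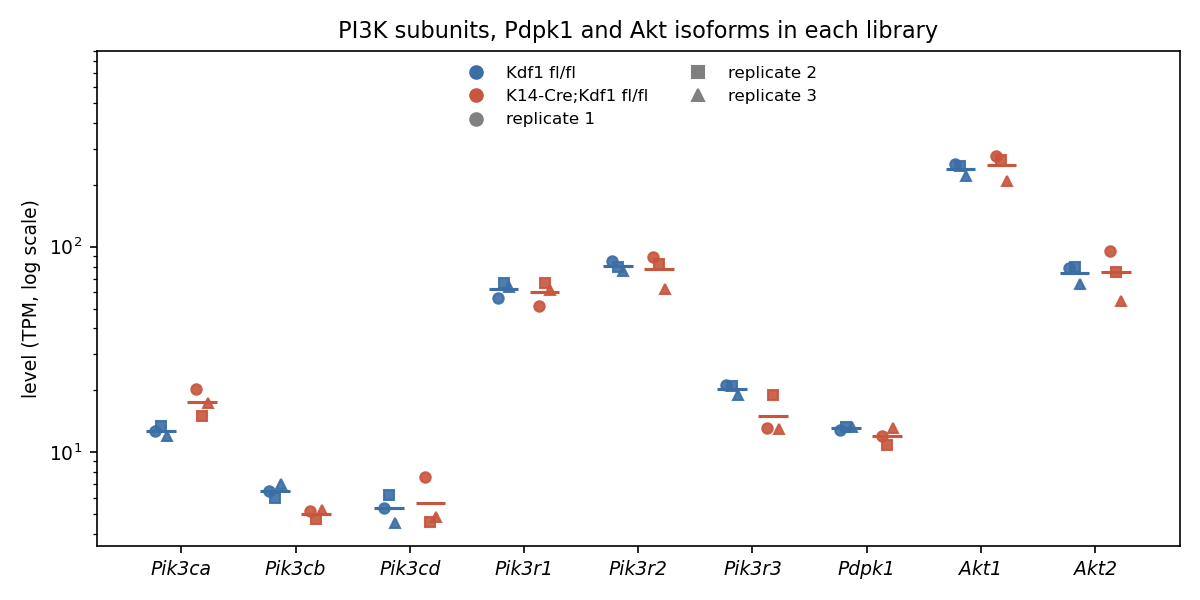
Level of each gene in TPM on a log axis, with 1 point per library (3 Kdf1 fl/fl in blue, 3 K14-Cre;Kdf1 fl/fl in red, symbols by replicate) and a bar at the group mean. Akt1 lies highest at 209 to 275 TPM over all libraries, and Pik3ca is the gene whose red points all lie above its blue points.

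Pik3ca encodes p110 alpha, the catalytic subunit through which many growth factor receptors act. Its level was 12.7, 13.4 and 11.9 TPM in control replicates 1, 2 and 3 and 20.2, 15.0 and 17.4 TPM in mutant replicates 1, 2 and 3. The control libraries lay close together, and all 3 mutant libraries lay above them. On the count scale the log2 fold change was 0.41 (SE 0.12, 95% interval 0.13 to 0.69), or 1.33-fold with an interval of 1.09 to 1.62. Its adjusted p was 0.112 by edgeR and 0.0852 when blocked by replicate number, whereas DESeq2 gave 0.0429. Over all other tests, scalings and filters with the 6 libraries it ran up to 0.192. The counts of Pik3ca were not whole numbers in any library. Kcnmb3, whose counts were not whole numbers either, had 10.1 to 47.0 counts. In 5 of 6 libraries the counts of both genes summed to a whole number within 0.02. Any reads shared by these genes cannot be told apart here. With all counts of Kcnmb3 added to Pik3ca, a step chosen after the values were seen, the log2 fold change was 0.42 (adjusted p = 0.0939 in edgeR).

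Pik3cb encodes p110 beta, which is also activated by G protein-coupled receptors. Its level was 6.49, 5.97 and 6.99 TPM in the controls and 5.14, 4.70 and 5.20 TPM in the mutants. Here the mutant libraries were the low ones, without overlap. The log2 fold change on the count scale was −0.44 (SE 0.17, 95% interval −0.84 to −0.032), with an adjusted p of 0.178 in edgeR and 0.144 to 0.304 over the other tests, scalings and filters. Between 190 and 310 reads per library stood behind these values.

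Pik3cd encodes p110 delta, the catalytic subunit best known from leukocytes. Its level was 5.32, 6.17 and 4.53 TPM in the controls and 7.52, 4.55 and 4.83 TPM in the mutants. Mutant replicate 1 was the highest library, and the other mutant libraries lay inside the control range. The same library had the highest summed level of 10 immune cell markers, 433 TPM, against 194 and 125 TPM in the other mutant libraries and 65.8 to 138 TPM in the controls. The part of immune cells in the Pik3cd level was not tested. The log2 fold change was −0.03 with a 95% interval of −0.56 to 0.50 (adjusted p = 0.946 in edgeR), which is the widest interval of the 9.

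Promoter sequences are shown for the 3 genes whose groups did not overlap, and for Akt1, so that the sequences around annotated starts can be compared. Which start is used in the IEE was not tested. They are RefSeq sequences on GRCm38.p6, 250 bases before to 50 bases after a transcript start, printed 5′ to 3′ on the strand of the gene. All 9 genes matched the table, with 19 starts in all, some of which overlap. Capitals mark GC boxes (CCGCCC or its reverse complement GGGCGG) and the FOXO motif (GTAAACA or its reverse complement TGTTTAC), searched on both strands, overlapping matches included.
Pik3ca, chr3:32396815-32397114, plus strand: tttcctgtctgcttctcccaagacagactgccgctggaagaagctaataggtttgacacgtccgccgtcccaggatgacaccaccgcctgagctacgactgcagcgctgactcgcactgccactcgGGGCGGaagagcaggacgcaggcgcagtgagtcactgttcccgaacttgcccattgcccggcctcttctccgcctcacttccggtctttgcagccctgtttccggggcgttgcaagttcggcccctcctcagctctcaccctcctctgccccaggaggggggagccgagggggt
Pik3cb, chr9:99140162-99140461, minus strand: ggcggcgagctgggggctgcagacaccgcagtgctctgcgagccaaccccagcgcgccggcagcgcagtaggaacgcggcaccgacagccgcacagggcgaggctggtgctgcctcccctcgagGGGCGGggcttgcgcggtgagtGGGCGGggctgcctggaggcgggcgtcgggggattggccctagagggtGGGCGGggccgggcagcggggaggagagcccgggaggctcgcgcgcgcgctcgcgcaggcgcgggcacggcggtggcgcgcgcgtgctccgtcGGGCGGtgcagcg
Pik3r3, chr4:116221166-116221465, plus strand, the outermost of 3 starts: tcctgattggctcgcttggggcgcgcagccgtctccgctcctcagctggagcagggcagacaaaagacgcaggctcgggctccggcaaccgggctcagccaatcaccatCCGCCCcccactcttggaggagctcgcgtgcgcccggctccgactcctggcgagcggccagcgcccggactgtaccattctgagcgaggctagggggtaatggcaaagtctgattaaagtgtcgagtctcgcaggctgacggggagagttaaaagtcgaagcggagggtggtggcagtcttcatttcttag
Akt1, chr12:112674835-112675134, minus strand, the outermost of 2 starts: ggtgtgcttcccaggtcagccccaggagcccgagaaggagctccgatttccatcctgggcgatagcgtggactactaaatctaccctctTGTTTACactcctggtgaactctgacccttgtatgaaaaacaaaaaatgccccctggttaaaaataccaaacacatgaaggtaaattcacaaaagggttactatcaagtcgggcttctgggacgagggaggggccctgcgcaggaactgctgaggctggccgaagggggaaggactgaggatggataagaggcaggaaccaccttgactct

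The Pik3ca window had 1 GC box, 20 CpG dinucleotides and a GC content of 63.3%. The Pik3cb window was denser, with 4 GC boxes, 44 CpG dinucleotides and 79.0% GC. The Pik3r3 window had 1 GC box, 25 CpG dinucleotides and 63.0% GC. The Akt1 window shown held the FOXO motif and no GC box, while that of the other Akt1 start had 5 GC boxes, 42 CpG dinucleotides and no FOXO motif. The window shown was the only 1 of the 19 windows with the FOXO motif, which 3.65% of all 32851 windows hold. A GC box was present in 12 of the 19, against 35.7% of all windows. Matches are given as a description of the sequence, not as bound sites.

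The mix of catalytic subunits was then compared as shares of the summed TPM of Pik3ca, Pik3cb and Pik3cd. The sum itself was 24.5, 25.5 and 23.5 TPM in the controls and 32.9, 24.2 and 27.4 TPM in the mutants, with overlap. Pik3ca made up 51.8%, 52.4% and 50.9% of it in the controls and 61.5%, 61.8% and 63.4% in the mutants. All mutant libraries lay above all controls, with a difference of 10.5 percentage points. The SDs over 3 libraries were 0.763 in the controls and 1.00 in the mutants. The Pik3cb share was 26.5%, 23.4% and 29.8% in the controls and 15.6%, 19.4% and 19.0% in the mutants, lower in all 3. The Pik3cd share overlapped, with means of 21.7% and 19.8%. These shares are parts of the same sum, so the rise of Pik3ca and the fall of Pik3cb are not separate results. Groups without overlap were common in this table, with 30.7% of all genes in CPM, and such a background was not computed for shares. In an exact two-sided permutation test over the 6 libraries the p was 0.1 for Pik3ca, 0.1 for Pik3cb and 0.4 for Pik3cd. With 3 libraries against 3 a p of 0.1 is the smallest this test can give, and adjusted over the 8 shares and ratios compared it was 0.267. The ratio of Pik3ca to Pik3cb in TPM, a value chosen after the data were seen, was 1.71 to 2.24 in the controls and 3.19 to 3.93 in the mutants.

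**Figure D2:**
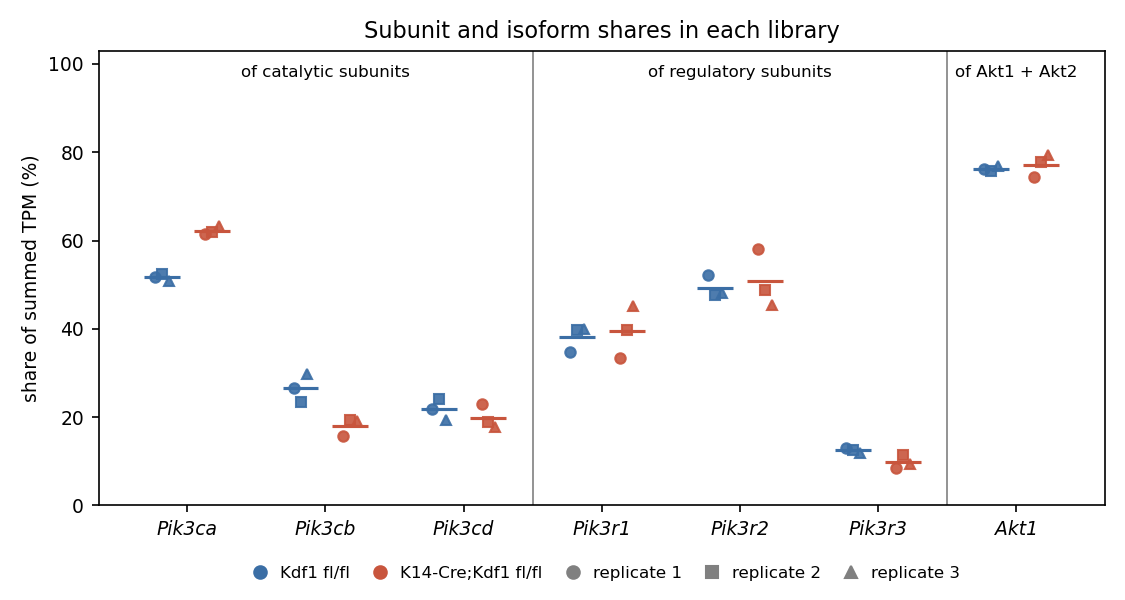
Share of each subunit or isoform in the summed TPM of its class, in percent, with 1 point per library (Kdf1 fl/fl in blue, K14-Cre;Kdf1 fl/fl in red) and a bar at the group mean. The red and blue points are apart for Pik3ca, Pik3cb and Pik3r3, and they overlap for Pik3cd, Pik3r1, Pik3r2 and Akt1.

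Pik3r3 encodes p55 gamma, a short regulatory subunit. After TMM scaling, it had 58.1, 57.8 and 57.9 CPM among the controls, and the mutants had 33.2, 50.5 and 35.1 CPM. The controls were nearly equal, and replicate 2 of the mutants was closer to them than the other mutant libraries were. In TPM that library, at 19.1, lay just above the lowest control, at 19.0, so the groups touched on this scale. The log2 fold change was −0.55 (SE 0.17, 95% interval −0.96 to −0.14), the largest in size of the 9 in edgeR. Its adjusted p was 0.124 by edgeR, 0.0658 when blocked by replicate number and 0.0663 by DESeq2. As a share of the regulatory subunits, Pik3r3 was at 13.03%, 12.5% and 11.9% in the controls and 8.49%, 11.4% and 9.41% in the mutants (exact permutation p = 0.1, adjusted 0.267).

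The other regulatory subunits, Pik3r1 (p85 alpha and its shorter forms) and Pik3r2 (p85 beta), together made up most of the regulatory transcripts. Pik3r1 was at 56.5, 66.5 and 63.6 TPM in the controls and 51.6, 66.6 and 61.8 TPM in the mutants. Pik3r2 was at 85.2, 79.6 and 76.3 TPM in the controls and 89.4, 81.9 and 62.1 TPM in the mutants. Both genes overlapped between the groups. Their log2 fold changes on the count scale were −0.15 (95% interval −0.51 to 0.21) and −0.12 (95% interval −0.42 to 0.19). The shares of Pik3r1 and Pik3r2 in the regulatory sum had means of 38.2% and 49.3% in the controls and 39.5% and 50.8% in the mutants, with exact permutation p values of 1 and 0.8. Regulatory transcripts exceeded catalytic ones by a factor of 6.65, 6.55 and 6.77 in the controls and 4.69, 6.91 and 4.998 in the mutants. This ratio was lower in mutant replicates 1 and 3 and higher in replicate 2 than in any control (exact permutation p = 0.4).

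Pdpk1 encodes the kinase that phosphorylates the activation loop of AKT and of related kinases. It was at 12.8, 13.3 and 13.3 TPM in the controls and 11.99, 10.8 and 13.2 TPM in the mutants. Mutant replicate 3 lay within the control range and the others below it. The log2 fold change on the count scale was −0.20 (SE 0.13, 95% interval −0.51 to 0.11), with an adjusted p of 0.389 in edgeR.

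Akt1, the widely expressed isoform, was at 253, 247 and 221 TPM in the controls and 275, 265 and 209 TPM in the mutants. Akt2, the isoform best known from insulin signalling, was at 79.1, 79.4 and 66.0 TPM in the controls and 95.1, 75.6 and 54.6 TPM in the mutants. For both genes the mutant libraries spread on both sides of the controls, with replicate 1 highest for Akt2 and replicate 3 lowest for both. The log2 fold changes were −0.02 (95% interval −0.32 to 0.27) for Akt1 and −0.04 (95% interval −0.45 to 0.37) for Akt2. In folds, the intervals ran from 0.803 to 1.21 for Akt1 and from 0.732 to 1.29 for Akt2. Akt1 held 76.2%, 75.7% and 77.0% of the sum of both isoforms in the controls and 74.3%, 77.8% and 79.3% in the mutants (exact permutation p = 0.6, adjusted 0.8).

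In the main edgeR fit, the unadjusted 95% intervals of all 9 genes excluded a 2-fold difference in either direction. The outermost bounds were −0.96 for Pik3r3, just inside that limit, and 0.69 for Pik3ca on the log2 scale. Without mutant replicate 2 the estimate for Pik3r3 was −0.73, and intervals of the other fits are not given here. Of all genes tested, 64.6% had such an interval. The median log2 fold change was −0.12 over the 9 and −0.0042 over all genes tested, and the median absolute value was 0.15 against 0.27. The median SE was 0.15 for the 9 and 0.20 for all genes. Mutant libraries spread more than controls in 8 of the 9 genes, the exception being Pik3cb. The coefficient of variation in TPM ran from 2.22% to 15.4% in the controls and from 5.45% to 29.1% in the mutants.

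**Figure D3:**
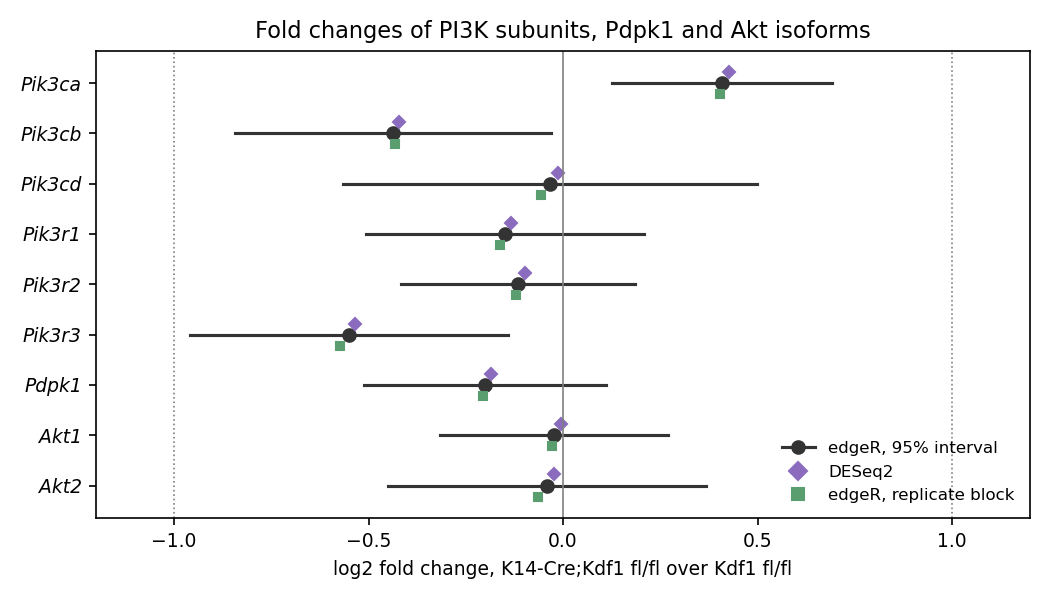
Log2 fold change of K14-Cre;Kdf1 fl/fl over Kdf1 fl/fl for each gene, from edgeR with its 95% interval (black), DESeq2 (purple) and edgeR with the replicate block (green), 3 libraries per group. The dotted lines mark a 2-fold difference, and all 9 intervals lie between them, with those of Pik3ca, Pik3cb and Pik3r3 clear of 0.

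Across the 6 libraries, log2 CPM of Pik3ca and Pik3r3 ran in opposite directions, with a Pearson correlation of −0.99. Mutant replicate 2, which had the lowest Pik3ca of its group, had the highest Pik3r3. Akt1 and Pik3r2 correlated at 0.88 and Akt1 and Akt2 at 0.79. These are descriptions over 6 libraries in 2 genotypes that share their scaling. The genes most like Pik3ca, among 11597 with a mean of at least 5 CPM, were Begain (0.99), Slc44a1 (0.99), Mpg (0.99), Cblb (0.99) and Atg4a (0.98). Of the genes compared, 242 lay above 0.9 and 267 below −0.9. Cblb, a ubiquitin ligase gene, had means of 35.9 and 63.3 CPM in controls and mutants and an adjusted p of 0.0637 in edgeR.

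A wider list of 85 genes of the pathway, chosen by role, gave 82 genes tested. Of these, 1 passed an adjusted p of 0.05 in edgeR (1.22% against 0.545% of all genes). It was Foxo1, a transcription factor gene whose product AKT phosphorylates and keeps out of the nucleus. Foxo1 fell from 101 ± 5.36 to 53.1 ± 2.59 TPM (SD, n = 3 per group). The log2 fold change was −0.98 (SE 0.14) with an adjusted p of 0.0498 in edgeR, just inside the threshold, and every mutant library lay below every control. The adjusted p was 1.6e-07 in DESeq2, 0.0613 at most over the other tests and scalings, and 0.0476 to 0.210 when 1 library was left out, where it passed only without mutant replicate 3. With the replicate block 7 of the 82 passed, 3 higher and 4 lower, and in DESeq2 13 passed, 7 higher and 6 lower. The median log2 fold change of the list was 0.04.

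At an unadjusted p of at most 0.05 in edgeR, which 24.5% of all genes reached, there were 26 of the 82. Receptors gave 3 of 10, all higher, and the adaptors and Ras proteins 6 of 16, with 4 higher and 2 lower. The lipid phosphatases with the PI3K inhibitor gave 4 of 8, all higher. Genes of mTORC2 gave 5 of 7, with 2 higher and 3 lower, and the other substrates of Pdpk1 6 of 12, with 2 higher and 4 lower. Akt substrates gave 2 of 14, both lower, and Akt phosphatases and inhibitors 0 of 7. In DESeq2, which called 12.6% of all genes, 1 receptor, 3 adaptors or Ras proteins, 2 lipid phosphatases or inhibitors and 1 Pdpk1 substrate were higher, while 1 adaptor, 1 mTORC2 gene, 1 Akt substrate and 3 Pdpk1 substrates were lower. With the replicate block, which called 9.87% of all genes, the higher genes were the receptor gene Pdgfra and the adaptor genes Irs1 and Gab2, and the lower ones Mtor, Foxo1, Prkcz and Prkci. Of these, all but Foxo1 and Prkci are named here after their values were seen.

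The genes named next by role are the most abundant by mean TPM over all 6 libraries. Upstream of PI3K, the receptors had a median log2 fold change of 0.20 over 10 genes, and the adaptors and Ras proteins 0.09 over 16. The most abundant receptors were Fgfr1 and Fgfr2, with log2 fold changes of 0.15 (adjusted p = 0.576) and 0.36 (adjusted p = 0.185) in edgeR. Of the adaptors and Ras proteins, Rac1 and Hras were the most abundant, with 0.17 and −0.50. The lipid phosphatases, which remove phosphates from PIP3 and related lipids, were listed with the PI3K inhibitor Pik3ip1. Their median was 0.22 over 8 genes. Pik3ip1, which encodes a membrane protein that binds and restrains p110, had 51.3 ± 3.02 TPM in the controls and 71.0 ± 1.82 TPM in the mutants (SD, n = 3 per group). Its log2 fold change was 0.40, close to that of Pik3ca, with an adjusted p of 0.0937 in edgeR and 0.0141 in DESeq2. Inppl1, which encodes a PIP3 phosphatase, had 0.12.

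Among genes of the kinase complex mTORC2, which phosphorylates AKT at its C-terminal site, the median was −0.18 over 7. Mapkap1 and Mlst8 had the highest means over all 6 libraries, with −0.28 and −0.18. In the controls alone Mtor, at 21.8 TPM, was above Mlst8, at 20.8 TPM. The 7 Akt phosphatases and inhibitors had a median of 0.03, and their most abundant genes, Ppp2ca and Ppp2r1a, encode subunits of protein phosphatase PP2A and had −0.11 and −0.07. The 14 Akt substrates had a median of −0.06. Gsk3a and Akt1s1 were the most abundant of them, with −0.13 and 0.17. The other substrates of Pdpk1 had a median of −0.14 over 12 genes. Prkci, an atypical protein kinase C gene, was at 147 ± 4.26 TPM in the controls and 99.3 ± 11.6 TPM in the mutants (SD, n = 3 per group). For Prkci the log2 value of the difference was −0.62 (adjusted p = 0.0850 in edgeR, 0.0326 with the replicate block, 0.00792 in DESeq2). Sgk1, a kinase gene related to Akt, had 26.5 ± 4.55 and 97.4 ± 88.0 TPM, with 199, 53.7 and 39.9 TPM in the mutant replicates, and its place among the most abundant rests on the mutants. Of the PI3K genes outside class IA, Pik3c3 (class III) and Pik3c2a (class II) were the most abundant, with 0.10 and −0.24.

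**Figure D4:**
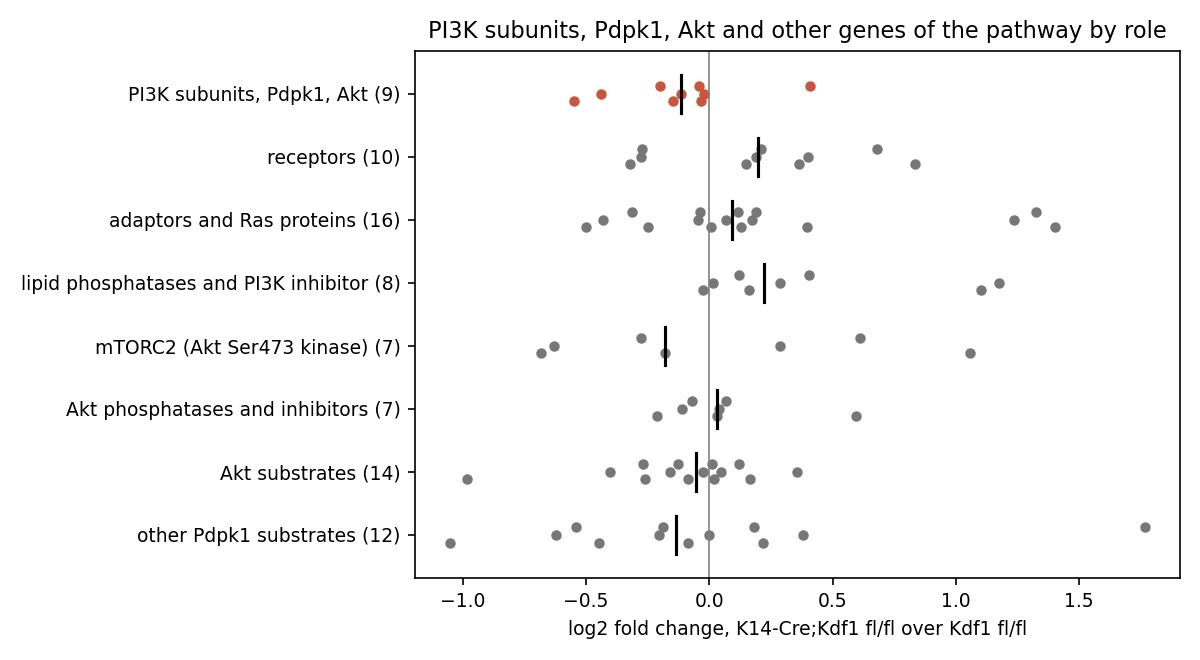
Log2 fold change of K14-Cre;Kdf1 fl/fl over Kdf1 fl/fl in edgeR for the 9 genes (red) and for tested genes of 7 roles of the wider list (grey), 1 point per gene, with a black line at each median. The 9 genes lie between −0.55 and 0.41, while the adaptors and Ras proteins reach 1.40 and the other substrates of Pdpk1 reach 1.77.

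Markers of other cell types were compared between the groups, beside a share of all genes of 14.5% higher and 16.2% lower without overlap. Of the markers tested, 1 dental epithelium and 1 dental papilla marker passed an adjusted p of 0.05 in edgeR, and 0 immune, endothelial or neural markers did. The summed TPM of 9 endothelial markers was 214 to 286 in the controls and 773, 440 and 252 in replicates 1, 2 and 3 of the mutants, with 9 of 9 higher on average and 2 without overlap. All 10 immune markers, whose sums are given with Pik3cd, were higher on average, 4 of them without overlap. Of 10 dental papilla and odontoblast markers, 6 were higher on average, 4 of them without overlap, and 1 was lower without overlap. The median log2 fold change of this list was 1.07, and the summed level of 3668 to 4497 TPM in the mutants lay inside the control range of 1674 to 8327 TPM. Of 10 dental epithelium markers, 9 were lower on average and 5 without overlap, and their summed level was 13328 to 44593 TPM in the controls and 4856 to 8534 TPM in the mutants. Of the 4 tested neural and Schwann cell markers, 2 were higher on average, both without overlap, and 1 was lower without overlap. Their median log2 fold change was 0.29. The summed level over this list was 176 to 368 TPM in the controls and 105 to 154 TPM in the mutants. In these bulk samples, fewer cells of a type and less RNA per cell cannot be told apart. In mutant replicate 3 the endothelial and immune sums lay within the control range, and the dental epithelium sum, 8534 TPM, lay below every control. The part of other cell types in the values of the 9 genes was not tested.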

How the data were processed

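RNA-seq was read from 6 libraries of laser-dissected IEE, 3 per genotype, grouped by the sample labels. The deposited table holds estimated counts, which the authors did not normalise, and FPKM and TPM values, which the authors scaled by length and library. Per the labels, the submitters' processing notes name BWA 0.7.12, Picard 2.6.0 and StringTie. The genome build and counting program are not given in the sources used here. Pooled mean columns were not used.

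Estimated counts were rounded. Genes were filtered with filterByExpr, scaled by TMM and compared by robust quasi-likelihood F-tests in edgeR 4.0.16 (R 4.3.3), two-sided, with Benjamini-Hochberg adjustment over 14131 genes. Intervals used the SE and the t quantile of the total degrees of freedom. Alternatives were DESeq2 1.42.0, limma 3.58.1 (voom, and a trend on log2 TPM with a pseudocount of 1 or 0.1), other scalings and filters, the replicate block, and leaving out each library. Shares of TPM were compared by exact permutation. Of these, only the main edgeR fit was run on simulated counts, and the outcome of that run is not reported here.

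The main test and the permutations were unpaired, since the methods name no pairing for RNA-seq. The numbers of the replicates were taken as pairs only in the block. Deviations from the group means correlated at 0.135, 0.324 and 0.499 between libraries that share a number. Libraries of unlike number were not compared in this way. Nothing in the labels states a shared litter. Replicates were not repeats of 1 library. Between pairs of libraries of a group, a chi-square averaged over genes was 34.3 to 73.3 times what sampling alone gives. It is a mean over genes and not the value of a typical gene. The labels call them biological replicates, and nothing further says how they were collected. A count of 0 allows 3 counts, or 0.182 to 0.198 CPM.

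The 9 genes and the lists were chosen with earlier results of these data known. Named beside them are Kdf1, the 2 genes of each role in the wider list with the highest mean TPM over all 6 libraries, any gene of that list past the threshold, and the 5 genes most correlated with Pik3ca. Kcnmb3 and the level of Cblb were described after their values were seen. Results of 1 gene of the wider list are not reported here.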

Additional observations from a re-analysis of the deposited data

How the results depend on the processing

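Of 154 recomputed values of the 9 genes, 136 kept their direction and their side of the threshold, 17 changed direction and 1, Pik3ca in DESeq2, passed the threshold. Pik3ca, Pik3cb, Pik3r1, Pik3r3 and Pdpk1 kept their direction in all of them. Without 1 library, Pik3ca ran from 0.37 to 0.53, Pik3cb from −0.54 to −0.34 and Pik3r3 from −0.73 to −0.42 (log2). The changes of direction were all in genes near 0. With library size alone, Pik3cd was at 0.020, Akt1 at 0.033 and Akt2 at 0.012. With upper quartile scaling Akt1 was at 0.0089, and with limma on log2(TPM + 1) and log2(TPM + 0.1) Pik3cd was at 0.046 and 0.050 and Akt1 at 0.048 and 0.048. Leaving out 1 library gave −0.26 to 0.12 for Pik3cd (positive without control replicates 1 or 2 or mutant replicates 2 or 3), −0.059 to 0.076 for Akt1 and −0.19 to 0.14 for Akt2 (both positive without control replicate 1 or mutant replicate 3), and −0.17 to 0.0068 for Pik3r2 (positive without mutant replicate 3). No share changed direction with FPKM, with CPM or with TPM + 1. Without 1 library, the Pik3ca share difference ran from 9.98 to 10.9 points, that of Pik3cb from −10.1 to −6.95 and that of Pik3r3 from −3.55 to −2.11. The Pik3r1 share difference ran from −1.56 to 4.3 (negative without control replicate 1 or mutant replicate 3), that of Pik3r2 from −2.19 to 4.13 (negative without mutant replicate 1) and that of Akt1 from −0.206 to 2.27 (negative without mutant replicate 3).

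The number of all genes past the threshold, 77, varied between settings. It was 1785 in DESeq2 and 1395 with the replicate block, 132 without a filter, 35 with log2(TPM + 1), 9 with library size alone, 7 with DESeq2's size factors, 6 with limma-voom and 6 with a minimum of 10 counts. Without 1 library it ran from 1 to 623, with 623 without mutant replicate 3, 16 without control replicate 2 and 1 without each of the others. Of the 9 genes, 1 passed in DESeq2 and 0 under every other setting, the block included. In the wider list 13 passed in DESeq2, 7 with the block, 2 without a filter and 0 with a 2-fold limit, limma-voom, DESeq2's size factors, library size alone or a minimum of 10 counts, and 0 to 4 without 1 library. The call of Foxo1 was lost in all fits without 1 library except that without mutant replicate 3. Beside these counts, the block changed the call of Prkci among the genes named by role. It also changed the calls of Pdgfra, Irs1, Gab2, Mtor and Prkcz, which passed with the block and not without it. The cause of these changes was not tested. Higher calls were 25 of 77 with TMM scaling, 29 of 79 with upper quartile scaling, 1 of 7 with DESeq2's size factors and 2 of 9 with library size alone. The Kdf1 difference could not be computed with a minimum of 10 counts, which removes Kdf1. Counts were lowest for Pik3cb and Pik3cd, at 178 to 310 per library.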
